A study of Mus musculus with 24 samples.

Results

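Apolipoproteins are the protein coats of the particles that carry fat and cholesterol in blood, and the 10 genes described here were chosen by symbol: Apoa1, Apoa2, Apoa4, Apoa5, Apob, Apoc1, Apoc2, Apoc3, Apoe and Apoh, out of 24421 genes in the count table. The mice were C57BL/6, were injected with MitoCDNB at 5 mg/kg or with vehicle (0.1% ethanol), and gave RNA from the medial liver lobe 1 h or 4 h later. MitoCDNB is a mitochondria-targeted form of chlorodinitrobenzene made to disturb the thiol redox state of mitochondria. Each treatment at each time made 1 of 4 groups of 6 libraries, and the labels name no engineered allele. The libraries of 4 h are numbered 1 to 12 and those of 1 h 13 to 24. In every comparison between the times, time after injection and the order of the libraries therefore cannot be told apart. The labels give neither the age of the mice nor a number of animals per library beyond n = 6, so p-values measure the spread between these libraries.

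The liver makes most plasma apolipoproteins. Apob forms the scaffold of very low density lipoprotein and is loaded with lipid as it is made, Apoa1 and Apoa2 are the main proteins of high density lipoprotein, and the smaller exchangeable proteins steer the particle's fate in blood: Apoc2 switches on lipoprotein lipase, Apoc3 holds it back, and Apoe binds receptors that return remnants to the liver. Their mRNAs are abundant in hepatocytes, and their promoters are read by nuclear receptors and other liver transcription factors.

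The questions were whether the 10 mRNAs differed between MitoCDNB and vehicle at either time, whether that difference itself depended on time, and whether they differed between the times within a treatment. At 1 h 1 of the 10 was called, Apoc2, lower by 0.39 on the log2 scale with MitoCDNB, where 6.57% of all genes were called. Without vehicle replicate 4 this difference was -0.22 and was not called. At 4 h 0 of the 10 and 0.824% of all genes were called. Apoa1 was 24.5% higher at 1 h and 17.7% higher at 4 h in the fit, without passing the test at either time. Apoa4 rose between 1 h and 4 h in the MitoCDNB mice, a comparison in which 28.5% of all genes were called. The other 7 genes gave no call in any of the 5 planned comparisons.

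Of the 10 genes, 7 lie in 2 chromosomal clusters. In GRCm38 (mm10) coordinates with GENCODE gene models, Apoa1, Apoc3, Apoa4 and Apoa5 lie within 43.34 kb of chromosome 9 (46228580 to 46271919), where Apoc3 runs on the minus strand and the other three on the plus strand. Apoc2, Apoc1 and Apoe lie within 27.61 kb of chromosome 7 (19671579 to 19699188), all on the minus strand. Apoa2 lies on chromosome 1 (171225054 to 171226379), Apob on chromosome 12 (7977648 to 8016835) and Apoh on chromosome 11 (108343354 to 108414396).

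RefSeq promoter sequences (GRCm38.p6) matched 8 of the 10 genes, Apoc1 and Apoc3 being without an entry in that table. The stretches before the start are printed for Apoa1, Apoc2 and Apoa4, the genes that the results turn on, cut where an annotated exon of a protein-coding gene begins, on the strand of the gene and 5′ to 3′. The Apoa1 stretch is chr9:46228380-46228579 (plus strand), the Apoa4 stretch is chr9:46240594-46240695 (plus strand), with the hepatocyte nuclear factor 4 core CAAAGTNCA in capitals, and the Apoc2 stretch is chr7:19677942-19678082 (minus strand), with the nuclear receptor half-site AGGTCA in capitals.
Apoa1: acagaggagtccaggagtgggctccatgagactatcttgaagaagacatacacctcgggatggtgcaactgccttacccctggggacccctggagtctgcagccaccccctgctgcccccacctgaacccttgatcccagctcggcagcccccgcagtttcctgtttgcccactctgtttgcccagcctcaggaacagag
Apoa4: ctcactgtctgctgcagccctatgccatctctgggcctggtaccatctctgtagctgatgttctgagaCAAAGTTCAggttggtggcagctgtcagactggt
Apoc2: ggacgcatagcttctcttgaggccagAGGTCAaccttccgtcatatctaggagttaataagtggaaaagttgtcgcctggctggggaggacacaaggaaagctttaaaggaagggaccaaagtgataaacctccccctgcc

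Both strands of the 250 bases before each start were searched for 5 motifs, in 12 windows, since some of the 8 genes have more than 1 start. The half-site AGGTCA lies in 3 of the 12 windows (Apoa2, Apoc2 and Apoh) and in 14.02% of 32851 promoter windows of the same length. For Apoa2 it lies before a start at 171221564, upstream of the gene model given above. The core CAAAGTNCA lies in 1 window, that of Apoa4, and in 1.19% of all windows. The TATA box TATAAA was found in 5 windows of 4 genes and in 12.4% of all windows. The forkhead site TGTTTAC was found in 2 windows (Apoa2 and Apoh) and in 3.17% of all, and the E-box CACGTG in 2 overlapping windows of Apoa5 and in 6.02% of all. None of the 5 is in the printed Apoa1 stretch, which says only that these letters are not in it. A match is a run of letters and not a measured binding site.

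The 24 libraries held 25132737 to 37231025 counts, and the 10 genes took 2.93% of them on average (range 2.30 to 3.91%). Major urinary protein genes took 13.99 to 45.7% of the counts of a library, so levels are given as CPM (counts scaled to a library of 1000000) after TMM scaling of the library sizes, a trimmed mean of log ratios between libraries. All 10 genes passed the filter on low counts and were among the 13833 genes tested. The hepatocyte marker Alb averaged 32500 to 35226 CPM in the 4 groups. The 9 enterocyte markers summed to 105 to 155 CPM per library, most of it from Anpep (group means of 57.9 to 68.3 CPM), Cdhr5 (36.6 to 38.3 CPM) and Fabp2 (22.4 to 26.3 CPM). Of the others, Sis, Alpi, Lct and Rbp2 had at most 2 counts in any library, Sis being at 0 throughout. Krt20 had at most 5 counts, and Vil1 averaged 0.22 to 0.55 CPM in the 4 groups. At 1 h, replicates 4 to 6 of both treatments held 12 to 39 counts of the neuronal gene Snap25, which was at 0 in replicates 1 to 3 and in all 12 libraries of 4 h. The 12 brain markers summed to 25.3 to 31.7 CPM in those 6 libraries and to 19.5 to 27.4 CPM in the other 6 of 1 h. In tissue RNA, fewer cells of a type and less RNA per cell cannot be told apart.

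The level per transcript length was highest for Apoe, the receptor ligand, at 9996 ± 856 CPM per kilobase (mean ± SD over 24 libraries). Apoa2 followed at 6658 ± 900, Apoa1 at 4117 ± 665 and Apoc1, an inhibitor of lipoprotein lipase, at 2801 ± 414 CPM per kilobase. Apoe stood above Apoa2 in every library and their ranges did not overlap. Apoc3 was at 1676 ± 194 and Apoh, a plasma glycoprotein that binds phospholipids, at 794 ± 89.9 CPM per kilobase. The lowest 4 were Apoa5, which promotes triglyceride clearance, at 298 ± 56.5, Apob at 196 ± 13.7, Apoc2 at 150.2 ± 29.1 and Apoa4 at 62.3 ± 23.6 CPM per kilobase. The full transcript length was used, with no correction for fragment length. The places of short transcripts such as Apoa2 (518 bases) and Apoc1 (532 bases) are therefore less certain. The level of Apoc2 and its place in this order are uncertain for a further reason. Its exons overlap a read-through transcript that was counted apart, and how shared reads were counted is not given. Besides Apoe and Apoa2, the neighbours Apoc3 and Apoh, and Apoh and Apoa5, also had ranges that did not overlap. The ranges of the other neighbours did, although within a library the order of each pair held in 23 or 24 of 24 libraries.

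**Figure D1:**
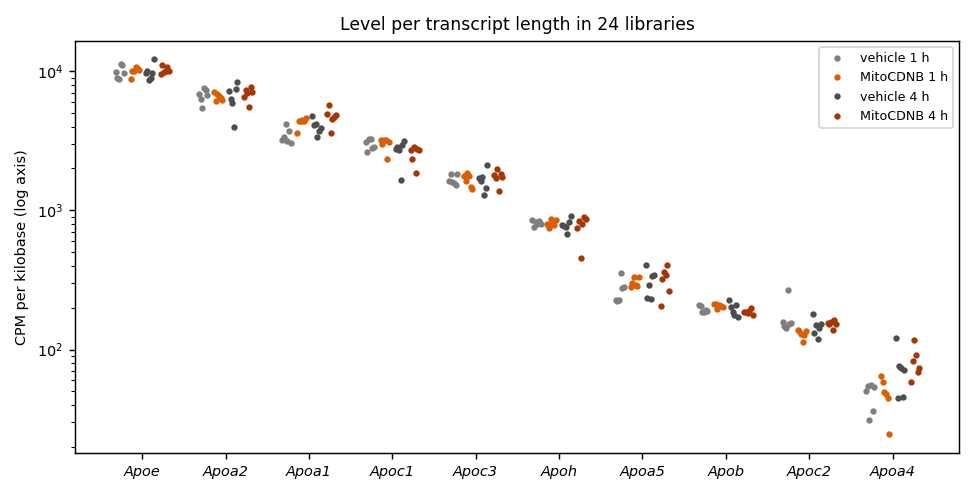
Level of the 10 genes per kilobase of transcript (CPM per kilobase, logarithmic vertical axis), with 1 point per library coloured by group. Apoe is on the left, its lowest library at 8683, and Apoa4 on the right, its highest library at 121 CPM per kilobase.

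Apob, the largest transcript, varied least between libraries, with a coefficient of variation of 7.02% over all 24, and Apoe was next at 8.56%. Apoa4 varied most, at 37.9%, and its highest library stood 4.87 times above its lowest. For Apoc2 and Apoa5 the coefficients were 19.4 and 18.97%. These coefficients hold differences between groups as well as the spread within a group. Within single groups the coefficient was 5.72 to 28.1% for Apoc2 and 3.25 to 10.6% for Apob.

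**Figure D2:**
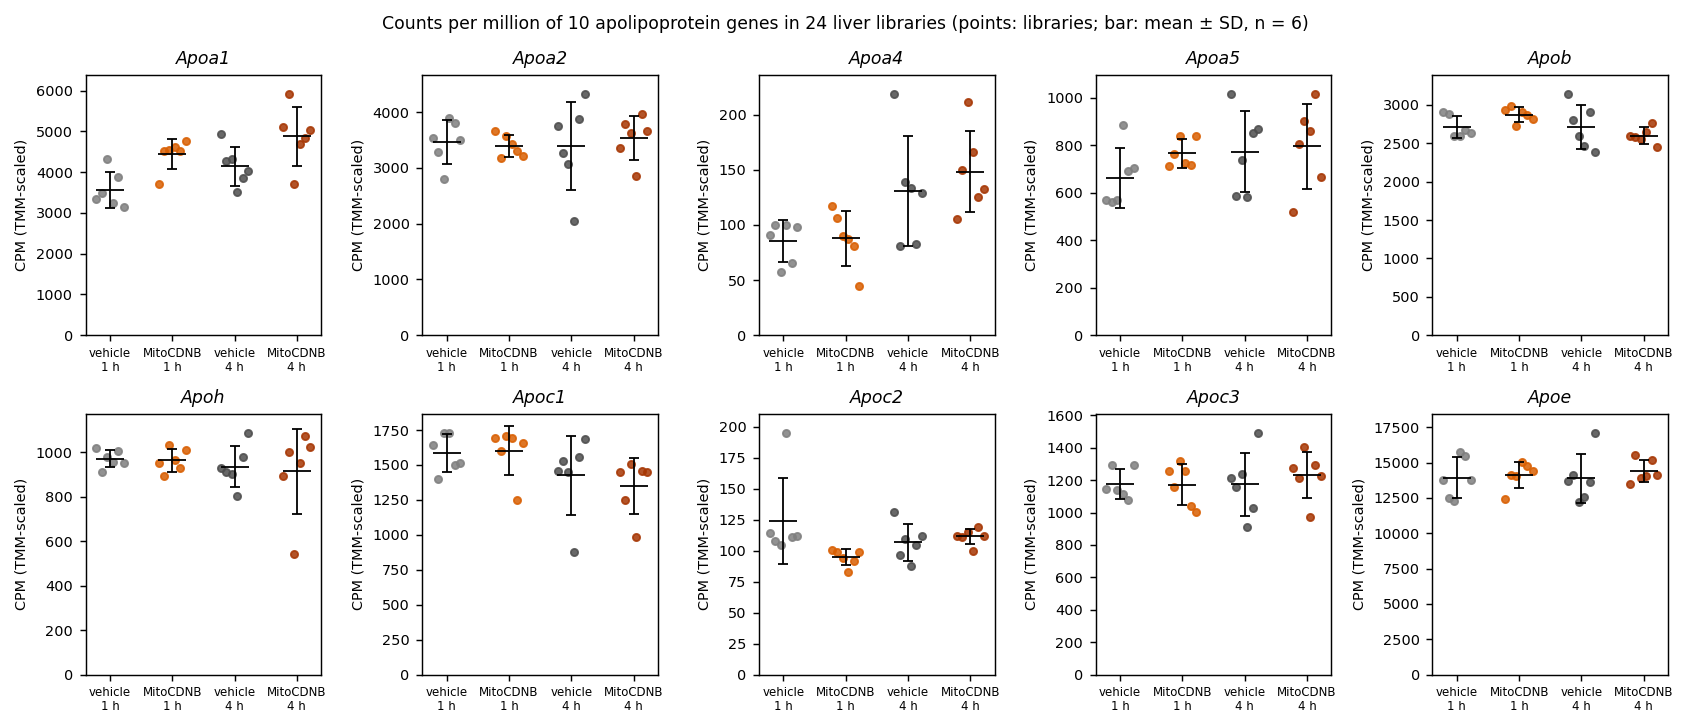
CPM of each gene in every library by group (points), with the mean and SD of 6 libraries (bars), all vertical axes starting at 0. The Apoc2 points of vehicle at 1 h include 1 library at 195 CPM, and the Apoa4 points of both 4 h groups reach above 200 CPM.

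Apoc2, the cofactor that activates lipoprotein lipase, was the 1 gene of 10 called at 1 h. Vehicle libraries at 1 h ranged from 105 to 195 CPM with a median of 111, and MitoCDNB libraries from 83.0 to 101 CPM with a median of 96.7. The highest vehicle library, replicate 4 at 195 CPM, stood far above the next at 114, and the groups did not overlap. In the edgeR quasi-likelihood test Apoc2 fell by 0.39 on the log2 scale (SE 0.118, 95% confidence interval -0.63 to -0.15, Benjamini-Hochberg adjusted p = 0.0446, n = 6 per group). Over all genes 6.57% were called at 1 h, 3.87% as lower, and 4.74% had groups that did not overlap, so 1 of 10 is near the background.

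Without vehicle replicate 4 the Apoc2 difference was -0.22 with an edgeR adjusted p of 0.120. The call was also lost when vehicle replicate 1 or any 1 of the 6 MitoCDNB libraries was left out, with adjusted p-values up to 0.106. Within replicates 1 to 3 the log2 difference was -0.15 (adjusted p = 0.644) and within replicates 4 to 6, which held the Snap25 counts, it was -0.61 (adjusted p = 0.0830, both edgeR). The part of the brain transcripts in this difference was not tested.

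The Apoc2 count is also uncertain because its exons overlap another row of the table. That row, Apoc4-apoc2, is a read-through transcript over Apoc2 and its neighbour Apoc4, and how reads shared by overlapping genes were counted is not given in the sources used here. In every library the read-through count was 0.80 to 0.85 times the sum of the Apoc2 and Apoc4 counts. Apoc2 itself held 17.02 to 33.7% of that sum. Replicate 4 of vehicle at 1 h, the library with the high Apoc2 value, also had the highest read-through level, 485 CPM against at most 434 CPM in the other 23, whereas its Apoc4 level of 384 CPM lay inside the range of its group (344 to 388 CPM). At 1 h the log2 difference was 0.06 for Apoc4 (edgeR adjusted p = 0.816) and -0.04 for the read-through row (adjusted p = 0.884). With the 3 rows summed before the fit, an alternative chosen after seeing the data, it was -0.04 (edgeR adjusted p = 0.881). Apoc2 was the smallest of the 3 rows. With vehicle at 1 h it averaged 124 CPM, beside 371 CPM for Apoc4 and 409 CPM for the read-through row. The sum could therefore move little with Apoc2 alone, and its value does not test the Apoc2 difference.

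**Figure D3:**
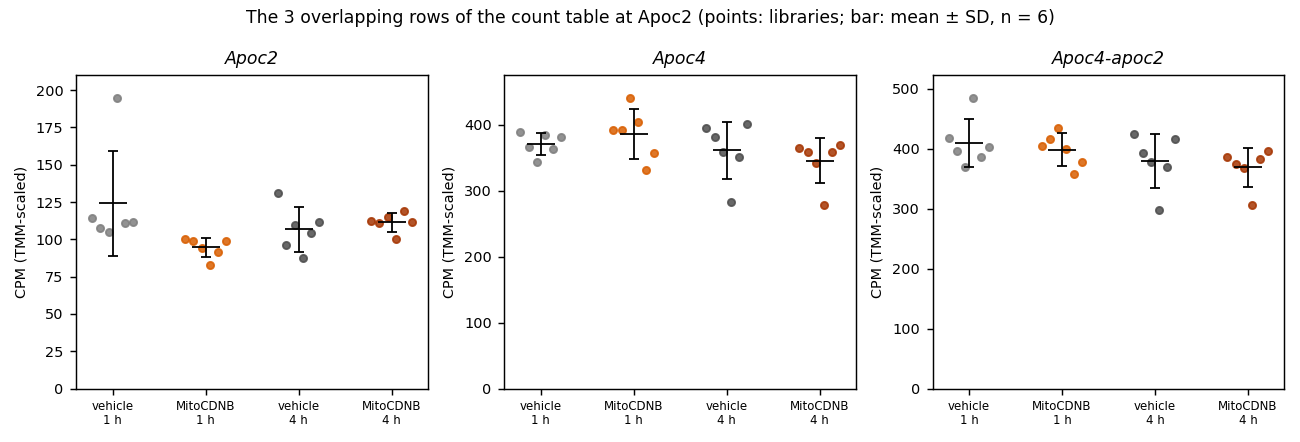
CPM of the rows Apoc2, Apoc4 and Apoc4-apoc2 in every library by group (points), with the mean and SD of 6 libraries (bars). Vehicle replicate 4 at 1 h is the highest point for Apoc2 (195 CPM) and for the read-through row (485 CPM), but not for Apoc4.

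At 4 h Apoc2 ranged from 87.3 to 131 CPM in vehicle libraries (median 107) and from 100.002 to 119 CPM in MitoCDNB libraries (median 112). These ranges overlapped, and the log2 difference was 0.06 (95% confidence interval -0.18 to 0.30, edgeR adjusted p = 0.869). The Apoc2 effect was 0.45 higher at 4 h than at 1 h on the log2 scale (95% confidence interval 0.11 to 0.80), and this interaction did not pass (edgeR adjusted p = 0.139, with 4.07% of all genes called). A difference between the times is therefore not shown for Apoc2.

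Apoa1, the main protein of high density lipoprotein and the activator of the enzyme that esterifies its cholesterol, was higher with MitoCDNB at both times in the fit. At 1 h vehicle libraries ranged from 3156 to 4315 CPM (median 3415) and MitoCDNB libraries from 3703 to 4762 CPM (median 4535). All 6 MitoCDNB libraries lay above the vehicle mean, 5 of them between 4509 and 4762 CPM, and the groups overlapped. The log2 difference was 0.32 (SE 0.102, 95% confidence interval 0.11 to 0.53), with an edgeR adjusted p of 0.0655.

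At 4 h vehicle libraries ranged from 3508 to 4927 CPM for Apoa1 (median 4145) and MitoCDNB libraries from 3705 to 5923 CPM (median 4933). The groups overlapped, and 5 of 6 MitoCDNB libraries lay above the vehicle mean. The log2 difference was 0.23 (SE 0.102, 95% confidence interval 0.02 to 0.45, edgeR adjusted p = 0.281). At this time 0.824% of all genes and 0 of the 10 were called, 0.896% of all genes and 0 of the 10 had groups that did not overlap, and at an unadjusted p under 0.05 Apoa1 was the 1 gene of 10. DESeq2 and limma-voom called 0 of the 10 as well. The count over all genes at 4 h varied with the libraries kept and with the tool. It was 114 in the main fit, 412 without vehicle replicate 1 and 348 with DESeq2, with 0 of the 10 in each.

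For Apoa1 at 1 h the call depended on the tool. The adjusted p was 0.0256 with DESeq2 and 0.0125 with limma-voom, and in edgeR it was 0.0239 without vehicle replicate 3 and 0.0379 without MitoCDNB replicate 1. With total counts in place of TMM it was 0.596. Over the alternative runs in edgeR, DESeq2 and limma-voom the log2 difference was 0.19 to 0.44 and the adjusted p at most 0.686. In replicates 1 to 3 of 1 h Apoa1 was at 3334 to 4315 CPM with vehicle and 3703 to 4546 CPM with MitoCDNB. In replicates 4 to 6, which held the Snap25 counts, it was at 3156 to 3871 and 4523 to 4762 CPM (same order). Neither set alone gave a call, and whether the sets differ was not tested. The mean of the Apoa1 effects of both times, a contrast added after each effect had been seen, was 0.28 on the log2 scale (SE 0.0723, 95% confidence interval 0.13 to 0.42, edgeR adjusted p = 0.0309), or 1.21-fold, where 3.69% of all genes were called, 2.03% as higher. It lost its call in 8 of 24 omissions of 1 library, with adjusted p-values of 0.0501 to 0.0634: vehicle replicates 1, 2, 4 and 6 and MitoCDNB replicate 6 of 1 h, and vehicle replicates 4 and 5 and MitoCDNB replicate 2 of 4 h. The Apoa1 effects of the times differed by -0.08 (95% confidence interval -0.38 to 0.22, edgeR adjusted p = 0.846).

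**Figure D4:**
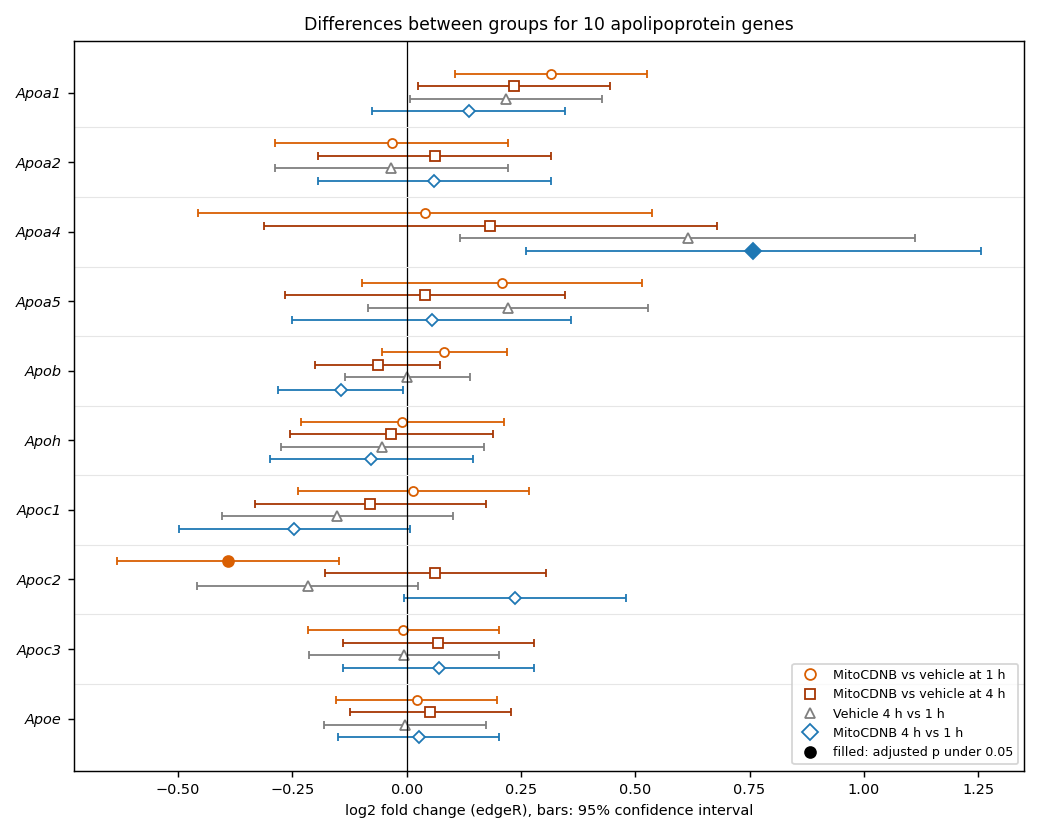
Log2 fold changes of the 10 genes in 4 comparisons (symbols) with 95% confidence intervals (bars), filled where the edgeR adjusted p was under 0.05. Apoc2 at 1 h (-0.39) and Apoa4 between the times with MitoCDNB (0.76) are filled, and the intervals of Apoa1 in both treatment comparisons lie above 0.

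Apoa4, a protein of chylomicrons and high density lipoprotein whose liver mRNA is known to respond to feeding and fasting, showed no call between treatments. At 1 h it ranged from 57.1 to 100.4 CPM with vehicle and from 44.9 to 117 CPM with MitoCDNB. At 4 h the ranges were 81.3 to 219 CPM and 106 to 211 CPM. The groups overlapped at both times, and the log2 differences were 0.04 (95% confidence interval -0.46 to 0.54) at 1 h and 0.18 (-0.31 to 0.68) at 4 h.

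Between the times Apoa4 was higher at 4 h in both treatments, a comparison in which time and the order of the libraries cannot be told apart. In MitoCDNB mice it rose by 0.76 on the log2 scale (SE 0.240, 95% confidence interval 0.26 to 1.26, edgeR adjusted p = 0.0211), from a median of 88.6 to 141 CPM, and all 6 libraries of 4 h lay above the mean of 1 h. In this comparison 28.5% of all genes were called, 15.1% as higher, so 1 of 10 is below the background. The call was lost without MitoCDNB replicate 3 of 4 h (0.63, adjusted p = 0.0616) and with 1 h replicates 1 to 3 alone (0.50, adjusted p = 0.249), while with 1 h replicates 4 to 6 alone the difference was 1.06 (adjusted p = 0.0268). In vehicle mice the Apoa4 difference was 0.61 (95% confidence interval 0.12 to 1.11), from a median of 94.6 to 132 CPM, with an edgeR adjusted p of 0.146. The interaction was 0.14 (-0.56 to 0.84), so no difference between the treatments was shown.

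Apob, the scaffold protein, had the narrowest intervals. Its vehicle and MitoCDNB libraries of 1 h ranged from 2591 to 2912 and from 2723 to 2981 CPM, and those of 4 h from 2390 to 3144 and from 2449 to 2767 CPM. These ranges overlapped at both times, and the log2 differences were 0.08 (95% confidence interval -0.05 to 0.22) at 1 h and -0.06 (-0.20 to 0.07) at 4 h. In MitoCDNB mice Apob was 0.14 lower at 4 h than at 1 h on the log2 scale (edgeR adjusted p = 0.109), which DESeq2 called at an adjusted p of 0.0459.

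Apoe, the receptor ligand and the most abundant of the 10 with 1.42% of all counts, averaged 13914 ± 1447 CPM (SD, n = 6) with vehicle and 14125 ± 898 CPM with MitoCDNB at 1 h. The means at 4 h were 13878 ± 1722 and 14382 ± 784 CPM. All 4 ranges overlapped. The log2 differences were 0.02 (95% confidence interval -0.15 to 0.20) and 0.05 (-0.12 to 0.23), which limits a change of Apoe in these livers to the size of those intervals.

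The lipase regulators Apoc1, Apoc3 and Apoa5 overlapped between treatments at both times. Apoc3 was at 1178 ± 93.5 and 1172 ± 128 CPM (vehicle and MitoCDNB) at 1 h and at 1173 ± 197 and 1230 ± 143 CPM at 4 h. For Apoa5 the levels were 663 ± 126 and 766 ± 59.5 CPM at 1 h, a log2 difference of 0.21 (95% confidence interval -0.10 to 0.51), and 774 ± 172 and 796 ± 178 CPM at 4 h. The Apoa5 value of 1 h differed between sets of libraries, being 0.45 in replicates 1 to 3 and 0.002 in replicates 4 to 6, and neither was called (edgeR adjusted p = 0.402 and 0.999). Whether the sets differ was not tested. Apoc1 was at 1584 ± 136 and 1600 ± 175 CPM at 1 h and at 1426 ± 282 and 1349 ± 201 CPM at 4 h.

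Apoa2, which shares high density lipoprotein with Apoa1, averaged 3471 ± 394 CPM with vehicle and 3393 ± 199 CPM with MitoCDNB at 1 h, and 3392 ± 795 and 3538 ± 392 CPM at 4 h. The log2 differences of Apoa2 were -0.03 (95% confidence interval -0.29 to 0.22) and 0.06 (-0.19 to 0.32). Apoh was at 970 ± 39.0 and 963 ± 51.3 CPM at 1 h and at 935 ± 93.5 and 913 ± 193 CPM at 4 h. Both genes overlapped between treatments at both times.

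As a group the 10 genes lay close to all genes tested. Their median log2 difference between MitoCDNB and vehicle was 0.02 at 1 h and 0.06 at 4 h, beside 0.003 and -0.004 over all 13833 genes. Of the 10, 6 were positive at 1 h and 7 at 4 h with TMM, and 3 and 10 with total counts, a scaling with which the median of all genes was itself -0.07 and 0.07 (0.15 in the interaction). In vehicle mice 0 of 10 were called between the times, where 5.44% of all genes were (at an unadjusted p under 0.05, Apoa1 and Apoa4), and DESeq2 and limma-voom called 0 of 10 there too. The interaction gave 0 calls among the 10 with edgeR, DESeq2 and limma-voom, and Apoc2 was the 1 gene at an unadjusted p under 0.05. The treatment, time and interaction comparisons share groups of libraries.

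Of the related genes, other apolipoproteins gave 0 calls of 7 tested at 1 h and at 4 h, and genes of lipoprotein assembly and secretion 0 of 13, among them Mttp, which loads lipid onto Apob (0.11 at 1 h and -0.01 at 4 h on the log2 scale). At an unadjusted p under 0.05 edgeR had 0 of the 7 at both times, and 1 of the 13 at 1 h and 3 at 4 h. The medians of these lists were 0.04 and 0.01 at 1 h and -0.03 and -0.07 at 4 h. All lists in this account were chosen with results of these data known.

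Among lipoprotein receptors and their regulators 1 of 15 tested rose at 1 h, a share close to the 6.57% of all genes called. Gpihbp1, which holds lipoprotein lipase on capillary walls, averaged 11.6 ± 1.10 CPM with vehicle and 15.9 ± 1.56 CPM with MitoCDNB, a log2 change of 0.46 (edgeR adjusted p = 0.0065). The highest vehicle library was at 12.9 CPM and the lowest MitoCDNB library at 14.4 CPM, so the groups did not overlap, as for 4.74% of all genes. At 4 h edgeR called 0 of 15 (0.824% of all genes), with 2 at an unadjusted p under 0.05, and Gpihbp1 was at 12.8 ± 1.22 and 13.9 ± 2.80 CPM. The medians of this list were 0.05 at 1 h and 0.04 at 4 h.

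Lipoprotein enzymes, transfer and efflux proteins gave 0 calls of 17 at 1 h and 1 at 4 h, beside 6.57% and 0.824% of all genes, with medians of 0.04 and 0.07. Bmp1, a protease that matures Apoa1, was that call, at 81.2 ± 14.97 CPM with vehicle and 111 ± 11.9 CPM with MitoCDNB (log2 0.46, edgeR adjusted p = 0.0301). At 1 h its values were 82.4 ± 10.02 and 82.5 ± 7.29 CPM.

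Of the regulators of apolipoprotein genes, the largest of these lists, 6 of 33 were called at 1 h, beside 6.57% of all genes. Of these 2 rose and 4 fell, and the median of the list was 0.06. Foxo3, a forkhead factor that is active when insulin signalling is low, went from 17.9 ± 3.91 to 63.2 ± 13.2 CPM, a log2 change of 1.81 (SE 0.156), and Rora, a nuclear receptor that binds the Apoa1 and Apoc3 promoters, rose by 0.63. The forkhead pioneer factors Foxa2 and Foxa1 fell by 1.34 and 1.07 on the log2 scale, the cyclic AMP-responsive factor Creb1 fell by 0.38, and the clock repressor Nr1d1, which acts on Apoa1 and Apoc3 genes, fell by 0.78. At 4 h 1 of 33 was called (0.824% of all genes), Nr1d1, which had risen by 0.69 (edgeR adjusted p = 0.0138). The interaction called 5 of 33, beside 4.07% of all genes: Nr1d1 (1.47), Foxa2 (2.04) and Nr2f2 (0.68) as higher at 4 h than at 1 h, and Foxo3 (-1.61) and Rora (-0.81) as lower.

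**Figure D5:**
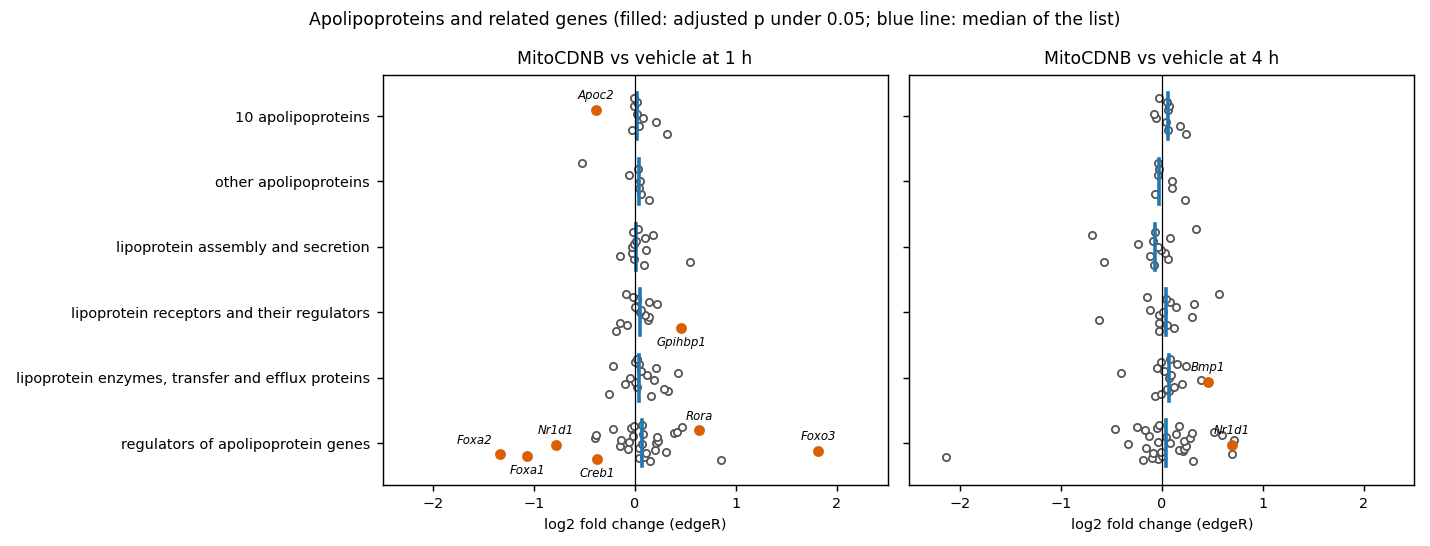
Log2 fold change between MitoCDNB and vehicle at 1 h (left) and 4 h (right) for the 10 genes and 5 lists of related genes, with 1 point per gene, filled where the edgeR adjusted p was under 0.05, and the median of each list as a blue line. The points of the 10 genes lie between -0.39 and 0.32 at 1 h, and those of the regulators between -1.34 and 1.81.

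Correlations of the 10 genes between mice of one group were taken on the TMM scale. After group means were subtracted, the median Pearson r over the 45 pairs was 0.16 (range -0.36 to 0.73). Over the 9 pairs within a chromosomal cluster the median was 0.24. No pair passed (Benjamini-Hochberg adjusted p under 0.05 over 45 pairs, from permutations of libraries within groups). Several pairs had an unadjusted permutation p under 0.05 for Pearson's r, all with a positive r. For Spearman's rho, Apoa1 and Apoa4 (-0.48, permutation p = 0.0265) and Apoa4 and Apoh (-0.45, permutation p = 0.0301) were negative. The other pairs under 0.05 for rho were positive. A lack of shared variation is therefore not shown. The highest pair was Apoa2 and Apoc1, with r = 0.73 (permutation p = 0.0066, adjusted p = 0.0996) and Spearman's rho = 0.51 (permutation p = 0.0255, adjusted p = 0.172), and r was 0.39 without the 2 libraries farthest from the Apoa2 median. Within the 12 libraries of 1 h it was 0.06 and within those of 4 h 0.88. Apoa5 and Apoc2 had r = 0.61 (permutation p = 0.0021, adjusted p = 0.0936), with 0.78 at 1 h and 0.61 at 4 h.

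The level of short against long transcripts in each library was set beside Apoc1 and Apoa2, a measure chosen after their values were seen. For 361 genes with transcripts under 1000 bases and 3275 over 3000 bases, the median deviation from the group mean was taken in each library, and the short minus the long median ranged from -0.27 to 0.34 on the log2 scale. The lowest 3 libraries were vehicle replicate 4 of 4 h (-0.27), MitoCDNB replicate 4 of 4 h (-0.18) and MitoCDNB replicate 5 of 1 h (-0.15). In these libraries Apoc1, whose transcript has 532 bases, deviated by -0.67, -0.44 and -0.35, and Apoa2, with 518 bases, by -0.69, -0.30 and -0.04. In vehicle replicate 6 of 4 h, which had the highest value (0.34), Apoc1 deviated by 0.27 and Apoa2 by 0.39. Vehicle replicate 3 of 1 h was also low in Apoa2 (-0.30) but not in Apoc1 (0.13), and its short minus long median was -0.003. Over the 24 libraries this measure had a Pearson r of 0.77 with Apoc1, 0.72 with Apoa2 and 0.75 with Apoc3 (709 bases). With Apoc2 (727 bases) r was 0.28. Spearman's rho was 0.51, 0.55, 0.53 and 0.42 in the same order. The part of transcript length in these deviations was not tested.

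Among 6657 other genes averaging 10 CPM or more, those most like each of the 10 across 24 libraries were as follows, by Pearson r of log2 CPM as a description. Apoa1 was closest to Mt1, a metallothionein that binds zinc (r = 0.82), and to Npm3 (0.80). Apoc1 was closest to Cox6c, a subunit of cytochrome c oxidase (0.91), and to Atp5j2, of the ATP synthase (0.89), and Apoa2 to Ndufa6, of respiratory complex I (0.88), and Sod1, a superoxide dismutase (0.87). Apoc3 was closest to Dnajc19 and Nkiras1 (0.88 each), Apoe to Aes (0.85) and Spr (0.81), Apob to Tm9sf3 and Ddx3x (0.83 each), and Apoa4 to Abcf1 (0.80) and Glrx (0.79). Apoa5 (Pgm2 and Pink1, 0.76 each), Apoh (Ccm2, 0.66, and Mir5121, 0.62) and Apoc2 (Wdr5, 0.65, and Idh2, 0.62) had weaker partners. All libraries share the groups and the TMM scaling, which enter these values. The transcripts of Cox6c, Atp5j2, Ndufa6 and Sod1 are short like those of Apoc1 and Apoa2, with 738, 955, 590 and 641 bases. Those of the Apoc3 partners Dnajc19 and Nkiras1 have 2499 and 4598 bases. The part of transcript length in these correlations was not tested.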

How the data were processed

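Poly(A) RNA of mouse liver was sequenced in 24 libraries made with the NEBNext Ultra kit, per the labels. The authors deposited whole-number read counts per gene symbol. The submitters' processing notes name the build mm10 and the tools HISAT2, Trim Galore, DESeq2 and CASAVA 1.8.4. Not given in the sources used here are the counting tool, the annotation and the handling of shared reads.

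From the counts, genes were kept by filterByExpr (minimum count 10, total 15), leaving 13833 of 24421 genes. All libraries entered 1 model of 4 groups with TMM scaling, in edgeR 4.0.16 (R 4.3.3; glmQLFit with robust fitting, glmQLFTest). Benjamini-Hochberg adjustment ran over all genes, with calls at an adjusted p below 0.05. Each SE is the log2 fold change divided by the root of F. Scripts were tested on simulated data. Transcript lengths are those of the longest CCDS transcript in GENCODE M21. No 2 libraries of a group agreed within sampling noise.

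Named were all 10 genes, up to 4 called genes per list and comparison with the smallest p (from the regulators at 1 h and in the interaction, further calls are named after their values were seen), and the 2 genes most like each. The members and lists were chosen with earlier results of these data known. Some genes of the lists are not reported here and were left out of the list counts. Alternatives covered scaling, filters, DESeq2 1.42.0, limma-voom 3.58.1, replicate blocks and omitted libraries.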

Additional observations from a re-analysis of the deposited data

Results flagged for a closer look

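In 40 groups of 6 libraries (10 genes in 4 groups), 5 held a library whose gap to the nearest other was large for the range of its group, by a criterion that chance meets in about 1 group in 20, or 2 of 40. Apoc2 in vehicle replicate 4 of 1 h was the highest of its group at 195 CPM, the next being 114 CPM. Apoa1 in MitoCDNB replicate 1 of 1 h was the lowest of its group at 3703 CPM, the next being 4509 CPM. Apoc1 was the lowest of its group in MitoCDNB replicate 5 of 1 h at 1251 CPM (next 1603 CPM) and in vehicle replicate 4 of 4 h at 878 CPM (next 1448 CPM). Vehicle replicate 4 of 4 h also had the highest summed level of 10 Kupffer cell and macrophage markers, 661 CPM, against at most 386 CPM in the other 23 libraries. Apoh in MitoCDNB replicate 3 of 4 h was the lowest of its group at 539.95 CPM, the next being 891 CPM. The same library held the highest Apoa4 level and the lowest Apoa1 level of its group, 211 and 3705 CPM.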

How the results depend on the processing

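Over 6 comparisons 1816 values of the 10 genes were recomputed. Of these 1778 kept their side of the threshold, 31 lost a call, 7 gained one and 0 called values changed sign, while 106 values without a call in either fit had the other sign. Most of the 1816 values had no call to lose. The losses were 16 for Apoc2 at 1 h, 3 for Apoa4 between the times with MitoCDNB and 12 for Apoa1 in the mean. Apoc2 kept its call in 8 of 16 alternative runs and 4 of 12 omissions, Apoa4 in 12 of 14 and 11 of 12. Apoa1 kept its call in 10 of 14 and 16 of 24. At 4 h, in the interaction and in vehicle mice between the times, 0 of the 10 were called in every alternative run. At 1 h (1 gene, Apoc2) the count was 0 with total counts, with the 2 groups alone, with a term for replicates 4 to 6, and within replicates 1 to 3 or 4 to 6. It was 2 (Apoa1 and Apoc2) with DESeq2, limma-voom and without 4 h vehicle replicate 1 and MitoCDNB replicate 2, and 0 to 2 over single omissions. Between the times with MitoCDNB (1 gene, Apoa4) it was 2 with these groups alone and with DESeq2, 0 with the term or replicates 1 to 3, and 0 to 1 over omissions. For the mean over both times (1 gene, Apoa1) it was 0 with total counts and within each set of 1 h replicates, and 0 to 1 over omissions. Pairs correlated past the threshold numbered 0 with TMM and 30 with total counts. The cause of these changes was not tested. Levels per kilobase moved by less than 1 SD with total counts.

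Same-numbered vehicle and MitoCDNB libraries of a time have neighbouring library numbers. Their correlations after group means were subtracted were -0.21 to 0.26, 4 of 12 above 0.1. In 4 of 12 the library of the same number was the closest match. These values do not settle whether the libraries are pairs, and the main fit used no replicate block. With a replicate block the count at 1 h was 0 (Apoc2 -0.38, edgeR adjusted p = 0.0949), within time also 0 (-0.35, adjusted p = 0.112), and for the mean over both times 0 (Apoa1 0.28, adjusted p = 0.0605).

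The lowest count of any of the 10 genes in a library was 1528 (Apoa4). The 6 libraries per group limit the precision, with SEs of 0.067 (Apob) to 0.24 (Apoa4) on the log2 scale at 1 h.

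Calls over all genes moved by over 1.5 times as follows. With total counts they were 407 at 1 h (909 with TMM), 35 at 4 h (114), 221 in the interaction (563), 141 between the times with vehicle (753), 1981 with MitoCDNB (3940) and 132 for the mean over both times (511). The share of calls that were higher then was 88.6% at 4 h (55.3% with TMM), 21.3% with vehicle between the times (54.8%), 70.7% with MitoCDNB (52.9%) and 80.3% for the mean (55.0%). Using 1 h replicates 1 to 3 or 4 to 6 alone gave 244 and 256 calls at 1 h, 150 and 275 in the interaction, 177 and 309 with vehicle between the times, and 191 and 102 for the mean, and replicates 1 to 3 gave 2395 with MitoCDNB. At 4 h the number was 18 with these groups alone, 247 without 4 h vehicle replicate 1 and MitoCDNB replicate 2, 348 with DESeq2, 227 with limma-voom, 412 without vehicle replicate 1, and 63 to 73 without vehicle replicate 2 or 5 or MitoCDNB replicate 3, 4 or 5. Between the times with vehicle it was 415 with these groups alone and 480 or 500 without vehicle replicate 6 or 5 of 1 h, in the interaction 930 with limma-voom, and for the mean 779 with DESeq2 and 862 without vehicle replicate 1 of 4 h.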

Other observations

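Between the times in MitoCDNB mice, 17 of 33 regulators of apolipoprotein genes were called by edgeR (9 higher and 8 lower at 4 h), where 28.5% of all genes were. The 4 with the smallest p were Foxo3 (-2.25 on the log2 scale), Rora (-1.10), Nr1d1 (1.04) and Foxa2 (2.28). Of 13 genes of lipoprotein assembly and secretion 4 fell, by 1.35 for Sort1, which sorts Apob particles, 1.39 for Apobec1, which edits the Apob mRNA, 0.45 for Pdia3 and 0.17 for Surf4. Among 7 other apolipoproteins tested 1 was called, Saa4, a serum amyloid protein of high density lipoprotein, which rose by 1.16. Of 15 receptors and their regulators 1 fell, Sdc1, a heparan sulfate proteoglycan that binds lipoprotein remnants, by 0.28. Of 17 enzymes, transfer and efflux proteins 1 rose, the protease Bmp1 (0.43, edgeR adjusted p = 0.00236), and 2 fell, the sterol efflux pair Abcg5 and Abcg8, by 0.48 and 0.56.

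In vehicle mice 7 of 33 regulators were called between the times, 4 higher and 3 lower at 4 h, beside 5.44% of all genes. Those with the smallest p were Nr1h4 (0.43), Foxo3 (-0.64), Nr1d2 (0.39) and Ppara (0.52). The other lists of lipoprotein genes gave 0 calls in this comparison, with 4 of 15 receptors and regulators and 1 of 13 assembly genes at an unadjusted p under 0.05.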
